A study of Mus musculus with 9 samples.

Results

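The receptors for the Fc part of IgG and the genes that carry or restrain their signal were followed in BV2 cells, an immortalized mouse microglial line. The genes were taken by name from the deposited table and comprise the activating receptors Fcgr1, Fcgr3 and Fcgr4, the inhibitory receptor Fcgr2b, the signal chain Fcer1g, the kinases Syk and Lyn, and the phosphatases Inpp5d (SHIP1) and Ptpn6 (SHP-1). They are 9 of the 40993 genes in the table, and all 9 were among the 11161 genes that reached a mean of 1 FPKM over the libraries and were tested. FPKM scales a gene's fragments by transcript length and by sequencing depth, so levels can be compared between genes. RNA came from control cells that were not treated and from those given MNPs@SiO2(RITC), particles with a cobalt ferrite core in a silica shell that holds the dye rhodamine B isothiocyanate, for 12 h at 10 µg/ml or 100 µg/ml, which the labels give as 0.01 and 0.1 µg/µl. Each of these 3 groups had 3 libraries from the same line. The labels do not say whether the 3 libraries of a group came from separate cultures, so the p-values measure only the spread between these libraries.

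Fcγ receptors bind antibody on particles, microbes and immune complexes. The activating receptors pair with the Fc receptor γ chain, encoded by Fcer1g, whose cytoplasmic tail holds an immunoreceptor tyrosine-based activation motif (ITAM). Src family kinases such as Lyn phosphorylate the ITAM, Syk docks on it, and the cell starts phagocytosis and cytokine release. Fcgr2b needs no partner chain and carries an inhibitory motif (ITIM) in its own tail, which recruits the lipid phosphatase SHIP1, while the tyrosine phosphatase SHP-1 acts on many other ITIM receptors of myeloid cells. Microglia express both arms, and the balance between them is known to set how strongly they answer to antibody.

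The deposited values are per gene and do not bear on promoters directly, so the promoter sequences are given as a description of the loci. Stretches of 250 bases before the start of transcription were taken from RefSeq on GRCm38.p6 for the 8 genes with an entry, which leaves out Lyn. They were searched on both strands for GAGGAA, a purine-rich box of the kind that PU.1 and other Ets factors of myeloid cells bind, and for TTCNNNGAA, the form of a gamma activation site for STAT factors. These motifs do not overlap each other in the sequences shown. The purine-rich box was present for Fcgr1, Fcgr3, Fcgr4, Inpp5d and for the second of the Syk starts listed, and absent from these windows for Fcgr2b, Fcer1g, Ptpn6 and the first Syk start. By the exons of the same gene in GENCODE M21, 250 of the 250 bases of the first Syk window and 187 of the Fcgr2b window are exonic. The absence there is thus largely one from transcribed sequence. The other windows held 0 to 29 exonic bases. The box occurs in 23.3% of the 32851 windows of the same length. The gamma activation site occurs in 7.02% of them and was found for Fcgr1 alone among the 8 genes, 109 bases before the start. The 4 windows printed here are those of an activating receptor with both motifs (Fcgr1, chr3:96293970-96294219, minus strand), the activating receptor of lowest RNA level (Fcgr4, chr1:171018676-171018925, plus strand), and both phosphatases, Inpp5d (chr1:87620062-87620311, plus strand) and Ptpn6 (chr6:124738710-124738959, minus strand). They read 5′ to 3′ along the gene, with capitals for the purine-rich box (TTCCTC where it lies on the other strand) and for the gamma activation site.
Fcgr1: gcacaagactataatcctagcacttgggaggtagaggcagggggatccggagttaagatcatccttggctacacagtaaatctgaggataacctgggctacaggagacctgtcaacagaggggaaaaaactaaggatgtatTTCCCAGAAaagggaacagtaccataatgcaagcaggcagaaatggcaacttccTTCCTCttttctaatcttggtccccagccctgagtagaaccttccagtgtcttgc
Fcgr4: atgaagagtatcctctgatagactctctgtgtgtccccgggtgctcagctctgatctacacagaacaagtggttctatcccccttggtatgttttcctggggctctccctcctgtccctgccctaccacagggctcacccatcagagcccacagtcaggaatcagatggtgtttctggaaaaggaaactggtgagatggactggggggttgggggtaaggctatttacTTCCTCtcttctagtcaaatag
Inpp5d: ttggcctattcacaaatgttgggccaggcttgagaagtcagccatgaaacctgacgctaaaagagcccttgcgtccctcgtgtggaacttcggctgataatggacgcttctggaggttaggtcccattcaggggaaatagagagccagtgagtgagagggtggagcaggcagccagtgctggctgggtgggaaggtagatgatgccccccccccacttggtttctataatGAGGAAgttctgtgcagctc
Ptpn6: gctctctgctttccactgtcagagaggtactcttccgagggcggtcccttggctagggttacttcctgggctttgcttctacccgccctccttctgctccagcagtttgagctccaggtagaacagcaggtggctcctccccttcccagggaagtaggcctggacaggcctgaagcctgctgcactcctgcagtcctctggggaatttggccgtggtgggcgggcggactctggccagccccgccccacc
The box lies 55 bases before the start in Fcgr1, 22 in Fcgr4 and 20 in Inpp5d, counted from its first printed base. A match is a description of the letters only, and the absence of one from a window says nothing about the factor. The window of Ptpn6 had 63.2% G and C, against a median of 52.4% over all windows.

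All 9 genes were expressed in control cells, but over a wide range. Fcer1g stood highest with 251 ± 18.5 FPKM (SD, n = 3), above 97.4% of the genes tested by its mean over all libraries, and Fcgr4 lowest with 9.61 ± 0.592 FPKM (SD, n = 3), above 31.7%. Between them came Inpp5d with 146 ± 14.3 FPKM, Ptpn6 with 133 ± 4.58, Fcgr3 with 86.7 ± 1.85, Lyn with 44.6 ± 1.55, Fcgr1 with 43.0 ± 0.619, Syk with 35.8 ± 1.46 and Fcgr2b with 33.4 ± 2.34 (SD, n = 3 each). The libraries of neighbours in this order did not overlap except for Inpp5d with Ptpn6, Lyn with Fcgr1, and Syk with Fcgr2b. In the cells at 10 µg/ml the same neighbours overlapped. At 100 µg/ml Syk stood above Fcgr2b without overlap, since its lowest library had 29.1 FPKM and the highest Fcgr2b library 25.1 FPKM, and Fcgr1 came to overlap with Syk.

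The gene for the shared signal chain was thus more abundant than the 3 activating receptors together in mean FPKM, and the phosphatase genes more abundant than Syk and Lyn. Within control libraries, Fcer1g exceeded Fcgr2b 7.52-fold and Fcgr3 exceeded Fcgr2b 2.60-fold (geometric means of 3 libraries), whereas Syk was at 0.270 of Ptpn6 and 0.246 of Inpp5d. The receptor genes lie together on chromosome 1, with Fcgr2b at 170960558 to 170976547, Fcgr4 at 171018920 to 171029761, Fcgr3 at 171051174 to 171064935 and Fcer1g at 171229572 to 171234365, apart from Fcgr1 on chromosome 3 (96282909 to 96293969). Inpp5d is also on chromosome 1 (87620312 to 87720507), Lyn on chromosome 4 (3678115 to 3813122), Ptpn6 on chromosome 6 (124720707 to 124738714) and Syk on chromosome 13 (52583173 to 52648792), all in GRCm38 coordinates of the deposited table and all protein-coding genes. Reads could be shared between relatives, because 12.8% of the stretches of 50 bases in the Fcgr3 transcript also occur in Fcgr2b and 11.4% of those of Fcgr2b occur in 47 other genes, 4.75% in Fcgr3. For Lyn, 15.9% of these stretches also occur in the gene Gm11787. Fcgr1, Fcgr4, Fcer1g, Syk, Inpp5d and Ptpn6 shared none with another gene, and the authors' correction for reads that map to several places may divide the shared reads unevenly.

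**Figure D1:**
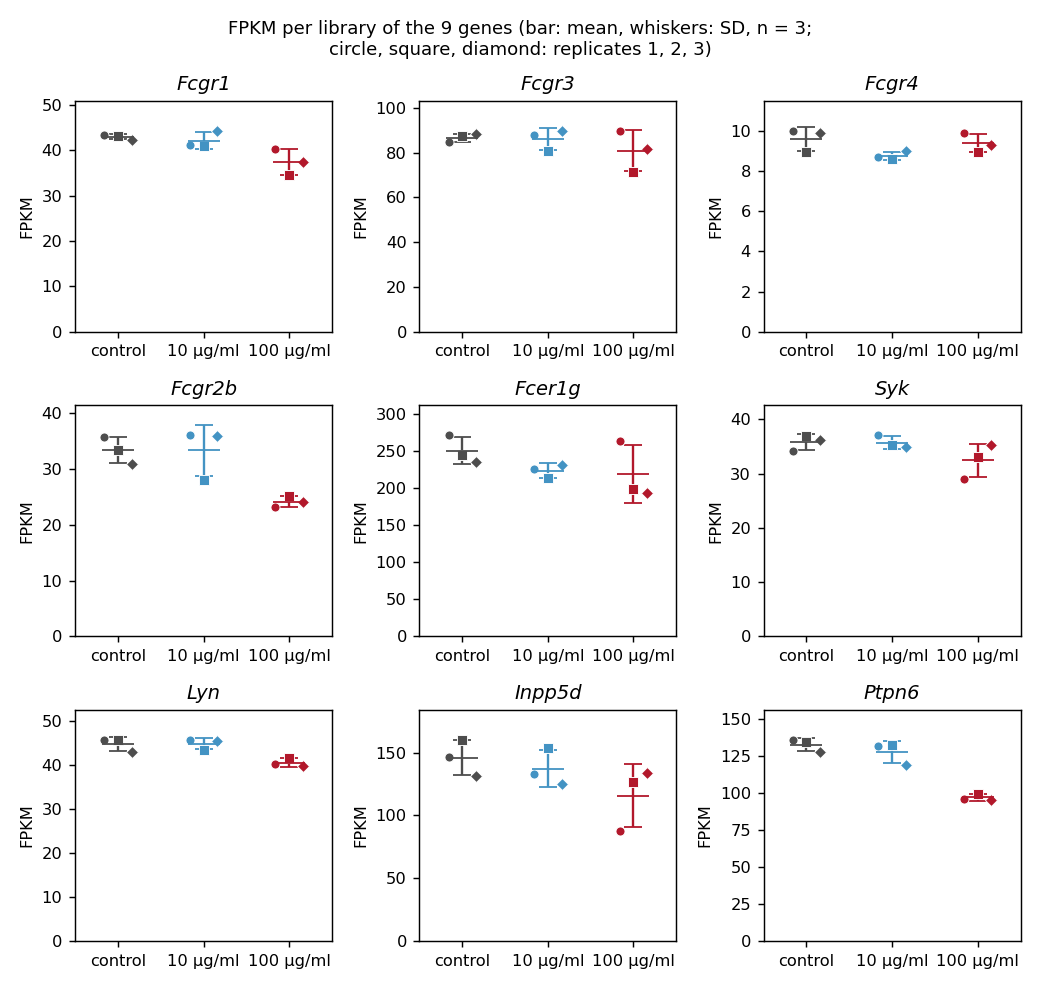
FPKM of the 9 genes in each library (y axis, from 0) for control cells and cells at 10 and 100 µg/ml MNPs@SiO2(RITC); points are libraries, bars the mean and whiskers the SD (n = 3). The 100 µg/ml libraries of Ptpn6, Fcgr2b, Fcgr1 and Lyn all lie below the control libraries, while those of the other 5 genes overlap with them.

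The libraries themselves were of similar size. Per library, FPKM added up to 473547 to 522812, and the depth, which had to be estimated from steps in the low values, was approximately 12.0 to 14.9 M (mega) fragments. At that depth Fcgr4 rested on about 136 to 184 fragments per library and each of the other 8 genes on at least 1072. Replicate 1 at 100 µg/ml stood apart from the other libraries. Its genes with transcripts under 1000 nt exceeded those with transcripts over 3000 nt by a median log2 deviation of 0.28, against -0.17 to 0.15 in the other 8 libraries, so the values of Fcer1g, Inpp5d, Syk, Fcgr1 and Fcgr3 against control, which it moved, are given below with and without it. As a check of the cell type, 6 of the 7 microglia and macrophage markers found in the table passed the filter (Cd68, Csf1r, Itgam, Spi1, Aif1 and Emr1), and Cx3cr1 was at most 0.0773 FPKM in every library. Defining markers of B cells (Cd79a), T and NK cells (Cd3e, Cd3d, Ncr1, Nkg7), mast cells (Kit, Cpa3, Cma1) and neurons (Rbfox3, Syt1, Snap25) were listed at 0 in all 9 libraries. Summed over a list, B cell markers reached at most 0.914 FPKM, T and NK cell markers 0.0202, mast cell markers 0.0702, astrocyte markers 0.980 and oligodendrocyte markers 1.44. The neutrophil list summed to 19.7 to 32.6 FPKM in control cells, 15.5 to 19.0 at 10 µg/ml and 17.0 to 22.7 at 100 µg/ml, nearly all of it S100a8, while Ly6g and S100a9 were listed at 0.

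The comparison of 100 µg/ml with control addresses how the high dose shifts the Fcγ receptor pathway. Ptpn6, the gene of the tyrosine phosphatase SHP-1, fell by 26.8%, from 133 to 97.0 FPKM, and was the gene among the 9 that passed the threshold. Fcgr2b, the inhibitory receptor, had a change in mean level of -27.7%, with an adjusted p just above the threshold. The activating receptors differed less, and Fcgr4 hardly at all. Every one of the 9 log2 fold changes was below 0, as were 50.4% of those of all genes tested. Their median was -0.20 beside -0.0016 over all genes tested. The value of Fcgr4 turned to 0.0030 under a correction for transcript length and GC content. Fold changes are differences on the log2(FPKM + 1) scale fitted by limma over all 3 groups, with p-values adjusted by Benjamini-Hochberg over the 11161 genes.

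In this comparison 1 of the 9 genes was called lower at an adjusted p under 0.05 and 4 were lower at an unadjusted p under 0.05. Over all genes tested the same rules called 1.41% and 9.69% of genes lower, and an unadjusted p under 0.05 with a higher value was found for 9.67%. The libraries of both groups did not overlap for 4 of the 9 genes, Fcgr2b, Fcgr1, Lyn and Ptpn6, all lower, against 11.4% of all genes.

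Among the activating receptors, Fcgr1 encodes FcγRI, which binds monomeric IgG with high affinity. It had 43.4, 43.2 and 42.3 FPKM in control libraries, against 40.2, 34.6 and 37.5 FPKM at 100 µg/ml. Each of the latter was below each of the former, and the log2 fold change was -0.20 (95% interval -0.34 to -0.05, adjusted p = 0.140 from limma), which did not pass. Fcgr3 encodes FcγRIII, the abundant low-affinity receptor for immune complexes. It had 84.6, 87.3 and 88.1 FPKM in control libraries, against 89.5, 71.4 and 81.4 FPKM at 100 µg/ml, where replicate 1 was above all control libraries and the other two below them, with a log2 fold change of -0.11 (95% interval -0.29 to 0.08, adjusted p = 0.523 from limma). Without replicate 1 at 100 µg/ml the log2 fold change of Fcgr3 was -0.18. Fcgr4, the receptor for IgG2a and IgG2b complexes, had 9.999, 8.93 and 9.90 FPKM in control libraries, against 9.88, 8.97 and 9.30 FPKM at 100 µg/ml. Those 3 libraries lay inside the control range, and the interval of its log2 fold change, -0.03, ran from -0.18 to 0.12.

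Fcgr2b, the sole inhibitory member of the family, had 35.6, 33.5 and 31.0 FPKM in control libraries, 36.0, 28.1 and 35.9 FPKM at 10 µg/ml and 23.2, 25.1 and 24.1 FPKM at 100 µg/ml. The 100 µg/ml libraries were close to each other and below the other 6. The log2 fold change against control was -0.45 (standard error 0.10, 95% interval -0.67 to -0.23, adjusted p = 0.0578 from limma, lower in 3 of 3 libraries). This value sat at the threshold. Its adjusted p from limma was under 0.05 in 4 of the 19 alternatives tried. Among them it was 0.0493 with a filter at a mean of 5 FPKM, 0.0490 after quantile normalization and 0.0282 without replicate 2 at 10 µg/ml. Over all 19 it ranged from 0.0277 to 0.189.

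The chain Fcer1g, on which surface levels of the activating receptors depend, had 272, 245 and 236 FPKM in control libraries, against 264, 199 and 194 FPKM at 100 µg/ml. Replicate 1 at 100 µg/ml lay within the control range and the other two below it, with a log2 fold change of -0.21 (95% interval -0.47 to 0.05, adjusted p = 0.364 from limma). The transcript of Fcer1g is short, 683 nt, and the 3 libraries with the highest Fcer1g were the 3 with the highest FPKM sums, replicates 1 and 2 of control and replicate 1 at 100 µg/ml. Without replicate 1 at 100 µg/ml its log2 fold change was -0.35 (adjusted p = 0.0300 from limma). The part of transcript length in this difference was not tested, beyond a correction for length and GC content chosen after seeing the data, under which the value was -0.17 (adjusted p = 0.0735 from limma).

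Of the kinases, Lyn, which starts both the activating and the inhibitory signal, had 45.5, 45.5 and 42.8 FPKM in control libraries, against 40.1, 41.6 and 39.6 FPKM at 100 µg/ml. The groups did not overlap, but the log2 fold change was small at -0.14 (95% interval -0.25 to -0.03, adjusted p = 0.169 from limma). Syk, the kinase that docks on the phosphorylated ITAM, had 34.2, 37.0 and 36.2 FPKM in control libraries, against 29.1, 33.0 and 35.2 FPKM at 100 µg/ml. Its groups overlapped, with a log2 fold change of -0.14 (95% interval -0.31 to 0.02, adjusted p = 0.329 from limma). Replicate 1 was the lowest library of Syk. Without it the log2 fold change of Syk was -0.07 (adjusted p = 0.488 from limma) and that of Lyn -0.13 (adjusted p = 0.149).

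The phosphatases were measured at high levels in every group. Ptpn6 had 136, 135 and 127 FPKM in control libraries, 131, 132 and 119 FPKM at 10 µg/ml and 96.1, 99.5 and 95.3 FPKM at 100 µg/ml. The 3 libraries at 100 µg/ml differed by less than 5 FPKM and lay below the other 6. Ptpn6 fell by 0.45 on the log2 scale (standard error 0.06, 95% interval -0.57 to -0.32, adjusted p = 0.00962 from limma, lower in 3 of 3 libraries), which was rank 27 of the 11161 genes by p-value. Without control replicate 2 the log2 fold change was -0.43 and the adjusted p 0.0528 from limma, in a fit that called 28 genes in all. An antisense gene, Gm20531, overlaps Ptpn6 and had at most 0.345 FPKM.

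Inpp5d, the gene of SHIP1, had 147, 160 and 132 FPKM in control libraries, 133, 154 and 125 FPKM at 10 µg/ml and 87.4, 126 and 134 FPKM at 100 µg/ml. Replicate 1 at 100 µg/ml was by far the lowest of the 9 libraries and the other two overlapped with control. The log2 fold change was -0.35 (95% interval -0.71 to 0.0020, adjusted p = 0.260 from limma), and -0.16 without that library (adjusted p = 0.373 from limma). The transcript of Inpp5d is long, 4937 nt, and in that library long transcripts were lower relative to short ones than in any of the other 8. The part of transcript length in the difference of Inpp5d was not tested. Under the correction for length and GC content its direction and its side of the threshold stayed the same.

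**Figure D2:**
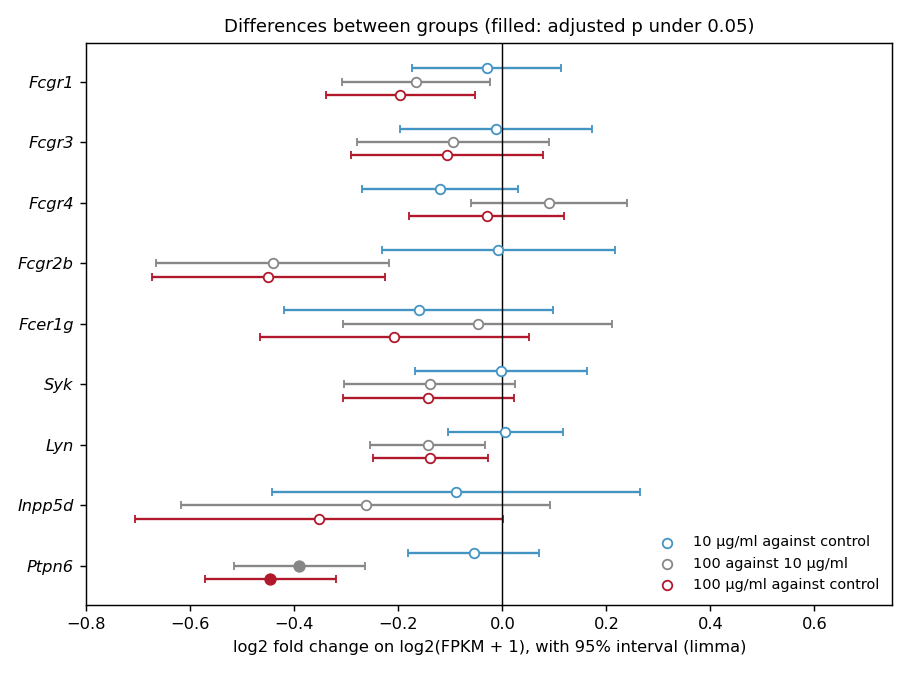
Log2 fold changes on log2(FPKM + 1) with 95% intervals from limma for the 9 genes (rows) in 3 comparisons; filled points have an adjusted p under 0.05. Ptpn6 at -0.45 against control and -0.39 against 10 µg/ml is filled, Fcgr2b has the same size with a wider interval, and the intervals of 10 µg/ml against control all include 0.

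The macrophage marker list was lower in sum in the same comparison, but not evenly over its genes. Its summed level was 929 to 1005 FPKM in control cells, 923 to 971 at 10 µg/ml and 828 to 893 at 100 µg/ml. Of its 6 tested genes all had a log2 fold change below 0 and 1 passed, where 1.41% of all genes tested were called lower. The gene that passed was Emr1 (Adgre1, which encodes F4/80), whose level fell from 203 to 127 FPKM and by 0.67 on the log2 scale (adjusted p = 0.00224 from limma). Aif1 (-0.65, adjusted p = 0.0841) and Csf1r (-0.21, adjusted p = 0.0783) did not pass, but their libraries at 100 µg/ml all lay below control. Spi1, which encodes PU.1, had 136 and 134 FPKM with a log2 fold change of -0.03. Cd68, the most abundant of the list, had 421 and 413 FPKM (-0.03, adjusted p = 0.908 from limma). Itgam had 61.9 and 54.3 FPKM (-0.20, adjusted p = 0.379 from limma), and both had overlapping groups. In RNA from a whole culture, fewer expressing cells and less RNA per cell cannot be told apart, and the part of the macrophage markers in the difference of Ptpn6 was not tested.

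Ratios within a library do not depend on the scaling between libraries and show how the arms of the pathway stood relative to each other. They are given without a test. Fcgr4 to Fcgr2b was 0.288 in control cells, 0.264 at 10 µg/ml and 0.389 at 100 µg/ml. In log2 units the control libraries ran from -1.91 to -1.64 and the 100 µg/ml libraries from -1.49 to -1.23, a difference in means of 0.43 without overlap. Fcgr1 to Fcgr2b was 1.29, 1.27 and 1.55 in the same order, a log2 difference of 0.26 from control without overlap at 100 µg/ml. Its lowest log2 value at 100 µg/ml, 0.461, was just above the highest in control, 0.449, and below the highest at 10 µg/ml, 0.544. Fcgr3 to Fcgr2b was 2.60, 2.60 and 3.34, a log2 difference of 0.36, with replicate 2 at 100 µg/ml (1.51) within the control range of 1.25 to 1.51. Activating receptor RNA was therefore higher relative to Fcgr2b at 100 µg/ml in all 3 pairs of means, with overlap in the case of Fcgr3. Replicate 1 at 100 µg/ml, the library with relatively high short transcripts, had the highest value of its group in each ratio. Without that library the log2 differences from control were 0.37 for Fcgr4, 0.18 for Fcgr1 and 0.25 for Fcgr3. The Fcgr2b transcript is the longest of these genes at 3544 nt, and the part of transcript length in the ratios was not tested. The 3 ratios share Fcgr2b and its lower level, so they are not separate observations. Fcgr1, Fcgr3 and Fcgr4 themselves had log2 fold changes below 0 (-0.20, -0.11 and -0.03).

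The chain ratio Fcer1g to Fcgr2b was 7.52 in control cells, 6.76 at 10 µg/ml and 8.98 at 100 µg/ml. Its log2 difference of 0.26 between 100 µg/ml and control became 0.09 without replicate 1 at 100 µg/ml, so that library set most of it. Syk to Ptpn6 was 0.270, 0.280 and 0.333, a log2 difference of 0.30 from control at 100 µg/ml without overlap. Syk to Inpp5d was 0.246, 0.261 and 0.284 with overlap, and its log2 difference of 0.21 became 0.09 without replicate 1. Lyn to Syk was 1.25 in the mean of each group, with a log2 difference of 0.0046 between 100 µg/ml and control.

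**Figure D3:**
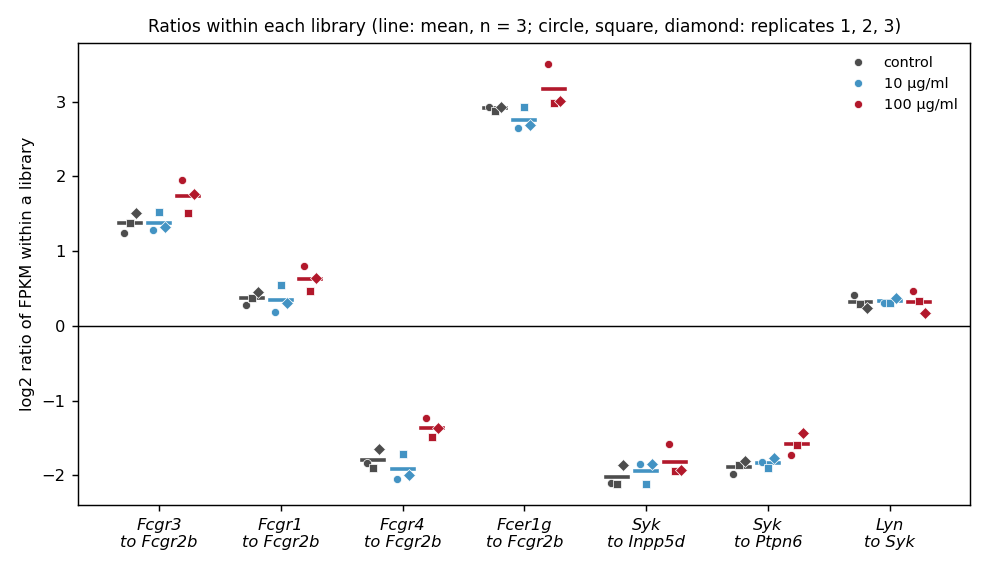
Log2 ratios of FPKM within each library (y axis) for 7 pairs of genes; points are libraries and lines group means (n = 3). The ratios of Fcgr1, Fcgr4 and Fcer1g to Fcgr2b and of Syk to Ptpn6 lie higher in all 3 libraries at 100 µg/ml than in control libraries, and Lyn to Syk does not separate the groups.

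The comparison of 10 µg/ml with control addresses whether the low dose reaches this pathway. None of the 9 genes was called by limma, and 0 of 9 had an unadjusted p under 0.05, where 0.00% and 3.28% of all genes tested met these rules in either direction. The log2 fold changes lay between -0.16 (Fcer1g) and 0.0051 (Lyn), and all adjusted p-values were 1. Fcer1g, at 226, 213 and 232 FPKM against 236 to 272 FPKM, was the gene of the 9 whose groups did not overlap (log2 fold change -0.16, 95% interval -0.42 to 0.10), and non-overlap with a lower value was found for 4.61% of all genes. That fold change was -0.10 without control replicate 1, -0.10 after quantile normalization and -0.09 under the correction for length and GC content. For Ptpn6 the interval was -0.18 to 0.07 and for Fcgr2b -0.23 to 0.22, so a fall of Ptpn6 of the size measured at 100 µg/ml lay outside it.

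Both doses were compared through the same libraries that enter the comparisons with control. Ptpn6 was the gene called, with 97.0 FPKM at 100 µg/ml and 128 FPKM at 10 µg/ml (log2 fold change -0.39, standard error 0.06, 95% interval -0.52 to -0.26, adjusted p = 0.0223 from limma). It is 1 of 9 genes called lower, against 0.636% of all genes, and the call was lost in a fit of the 6 libraries compared (adjusted p = 0.107 from limma) and without control replicates 1 or 2, replicates 1 or 2 at 10 µg/ml or replicates 2 or 3 at 100 µg/ml (adjusted p = 0.0528 to 0.126 from limma). Fcgr2b had a log2 fold change of -0.44 (95% interval -0.67 to -0.22, adjusted p = 0.0883 from limma), Fcgr1 -0.17 (adjusted p = 0.278) and Lyn -0.14 (adjusted p = 0.232). These 4 genes had an unadjusted p under 0.05 and groups that did not overlap, where 7.80% and 9.99% of all genes were lower by these rules. Fcgr4 was the exception in sign, with 9.39 FPKM at 100 µg/ml and 8.76 FPKM at 10 µg/ml (log2 fold change 0.09, adjusted p = 0.589).

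The wider pathway was described through 6 lists of 114 symbols, of which 113 were matched and 85 tested. At 100 µg/ml against control 1 of the 85 was called lower and 0 higher, where 1.41% and 0.708% of all genes tested were called. At an unadjusted p under 0.05, 15 of the 85 were lower and 5 higher, where 9.69% and 9.67% of all genes were. The median log2 fold change of the 85 was -0.08, with 59 below 0, where 50.4% of all genes tested were below 0. At 10 µg/ml 0 of 85 were called by limma and 0 had an unadjusted p under 0.05, where 0.00% and 3.28% of all genes were in either direction. At 100 against 10 µg/ml 0 of 85 were called by limma, where 0.636% of all genes were called lower and 0.215% higher. At an unadjusted p under 0.05, 16 of the 85 were lower and 3 higher in this comparison, where 7.80% and 6.49% of all genes were.

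The list of other ITIM receptors and receptors related to them stood lowest at 100 µg/ml, with a median log2 fold change of -0.27. Of its tested genes 13 of 14 were below 0, against 50.4% of all genes tested. The called gene was Siglece, a sialic acid receptor that recruits SHP-1, with 2.21, 2.63 and 1.94 FPKM in control libraries, 2.12, 2.19 and 1.80 at 10 µg/ml and 1.31, 1.19 and 1.00 at 100 µg/ml. It fell by 0.59 on the log2 scale (95% interval -0.86 to -0.31, adjusted p = 0.0480 from limma), and the call was lost without any 1 of control replicates 1 to 3, replicates 2 or 3 at 10 µg/ml or replicate 3 at 100 µg/ml. Lilrb4, another ITIM receptor, was the gene of the list with a value above 0, at 56.2 FPKM in control cells and 70.5 FPKM at 100 µg/ml (log2 fold change 0.32, adjusted p = 0.0507). The larger point estimates of Cd33 (-0.71, adjusted p = 0.0695) and Clec12a (-0.65, adjusted p = 0.0624), chosen here after their values were seen, did not pass. Siglece and Cd33 lay near the filter of 1 FPKM, with control means of 2.26 and 2.57 FPKM. Sirpa, the abundant ITIM receptor for CD47, had 210.1 and 201 FPKM, with a log2 fold change of -0.07.

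The list of other ITAM receptors and adaptors, with genes related to them, had a median of -0.16 over 11 tested genes. Of these 0 were called and 8 were below 0, where 1.41% of all genes tested were called lower and 50.4% were below 0. Clec7a, which encodes the β-glucan receptor Dectin-1, had 26.0 FPKM in control cells and 17.3 at 100 µg/ml (log2 fold change -0.56, adjusted p = 0.0727 from limma). Clec5a, which pairs with the adaptor DAP12, had 23.8 and 18.9 FPKM (-0.32, adjusted p = 0.0678). Tyrobp, the gene of DAP12 and the counterpart of Fcer1g, had 266 and 231 FPKM (-0.20, adjusted p = 0.539), and Trem2 134 and 119 FPKM (-0.16, adjusted p = 0.396), both with overlapping groups.

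Other Fc receptors were mostly off. Of 12 symbols 3 were tested, and Fcer1a and Ms4a2, the α and β chains of the IgE receptor, were listed at 0 in every library. Fcrl1 had 12.6 FPKM in control cells and 14.3 at 100 µg/ml (log2 fold change 0.17, adjusted p = 0.253 from limma), and Fcgrt, the gene of the neonatal Fc receptor, 1.36 and 1.40 FPKM (0.02, adjusted p = 0.934). Of the other Src family kinases, Fgr had at most 0.275 FPKM in any library, whereas Fyn had 29.7 FPKM and Lyn 44.6 FPKM in control cells.

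Among 10 tested proximal kinases and switches 0 were called, with a median of -0.04, where 2.11% of all genes tested were called in either direction. Csk, which holds Src family kinases inactive, had 33.7 FPKM in control cells and 38.5 at 100 µg/ml (log2 fold change 0.18, adjusted p = 0.169 from limma), and Ptprc (CD45), which releases them, 73.9 and 66.7 FPKM (-0.15, adjusted p = 0.270). Of 36 adaptors and effectors 0 were called and 23 were below 0, against 50.4% of all genes tested below 0, with a median of -0.06. The adaptor Shc1 had 54.8 and 47.2 FPKM (-0.21, adjusted p = 0.0541) and Fyb 133 and 105 FPKM (-0.35, adjusted p = 0.0662). Of 11 other negative regulators 0 were called and 9 were below 0, beside the same shares of all genes, with a median of -0.15. Sla, which encodes the adaptor SLAP, had 2.13 and 1.20 FPKM (-0.52, adjusted p = 0.0885), and Dok1, an adaptor that dampens Ras signaling, 11.6 and 14.2 FPKM (0.28, adjusted p = 0.131).

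**Figure D4:**
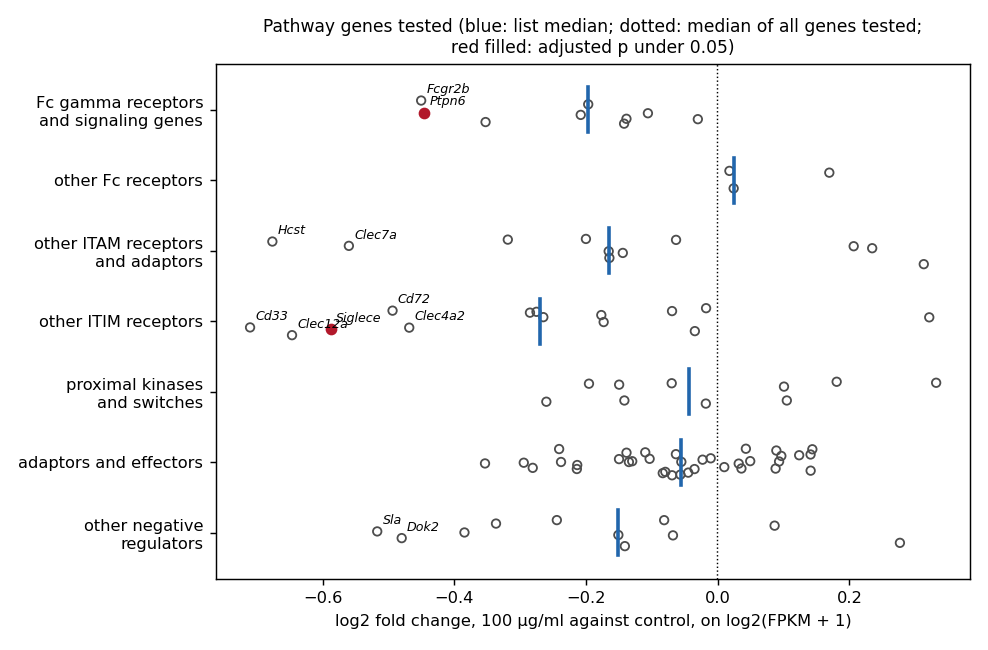
Log2 fold change on log2(FPKM + 1) at 100 µg/ml against control (x axis) of the tested genes of each list (rows), with the list median as a blue line and the median of all genes tested as a dotted line. Ptpn6 and Siglece are the red points with an adjusted p under 0.05, and the list of other ITIM receptors has its median at -0.27.

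Leaving out each library in turn showed which values rested on a single one. For Ptpn6 the log2 fold change at 100 µg/ml against control stayed between -0.47 and -0.43, and for Fcgr2b between -0.50 and -0.40. For Fcer1g it ran from -0.35 to -0.13, for Inpp5d from -0.47 to -0.16, for Syk from -0.20 to -0.07 and for Fcgr3 from -0.18 to -0.02. In each of these 4 genes one end of the range was the fit without replicate 1 at 100 µg/ml. That fit called 3 of the 9 genes, Ptpn6 (adjusted p = 0.00994), Fcer1g and Fcgr1 (log2 fold change -0.25, adjusted p = 0.0436 from limma), while Fcgr2b was at -0.42 (adjusted p = 0.0716). Over all genes it called 530 (4.75%), against 236 (2.11%) with all 9 libraries, so calls rose well beyond these genes.

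**Figure D5:**
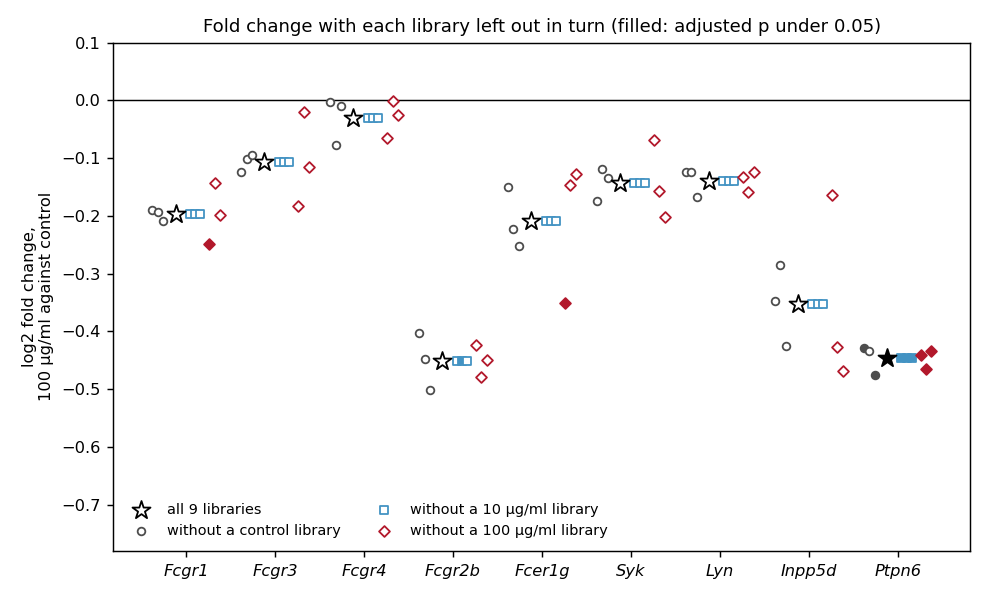
Log2 fold change at 100 µg/ml against control (y axis) of the 9 genes with all 9 libraries (stars) and with each library left out in turn; filled symbols have an adjusted p under 0.05. Ptpn6 stays between -0.47 and -0.43, and leaving out a library at 100 µg/ml moves Fcer1g from -0.35 to -0.13 and Inpp5d from -0.47 to -0.16.

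The genes whose level followed that of Ptpn6 most closely over the 9 libraries were found by Pearson's r on log2(FPKM + 1), as a description of libraries that share groups and processing. They were Tpp1 (r = 0.989, Spearman's rho 0.933), which encodes a lysosomal peptidase, Dpysl2 (0.983, 0.950), Fam49a (0.983, 0.967), Tifab (0.981, 0.833) and Ly9 (0.980, 0.933), a receptor of the SLAM family. Their levels were 97.4 to 101 FPKM in control cells and 87.3 to 88.3 at 100 µg/ml for Tpp1, and 47.2 to 48.3 and 39.5 to 41.0 FPKM for Ly9. Among the 9 genes themselves, Fcgr2b and Lyn had the highest r over these libraries (0.959, rho 0.900), followed by Lyn and Ptpn6 (0.889, rho 0.817), and Fcgr4 and Syk the lowest (-0.46, rho -0.48).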

How the data were processed

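RNA of BV2 cells was sequenced from poly(A)-selected, stranded libraries, 3 in each group, and samples were grouped by the titles and treatments in their labels. The authors aligned the reads with TopHat and computed the deposited FPKM with Cufflinks 2.1.1 for the gene models of Ensembl release 77, correcting for multi-mapped reads and fragment bias. The table holds FPKM for each library and no counts, so depth could only be approximated from the spacing of low values, and no counting precision is given. The study's own test, Cuffdiff, needs alignments and was not repeated.

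Values were transformed to log2(FPKM + 1), which understates fold changes of low genes. Genes averaging 1 FPKM or more were tested two-sided with limma 3.58.1 (R 4.3.3). A single model held the 3 groups, eBayes was run with its trend option, and p-values were adjusted by Benjamini-Hochberg, with a threshold of 0.05. Tables and plots were made with Python 3.11.15, pandas 2.3.3, numpy 2.4.6 and matplotlib 3.10.9. The procedure was tested on simulated data with independent noise and planted changes larger than those of the 9 genes. That check does not bear on changes of their size or on differences by transcript length between libraries. Transcript lengths (longest coding transcript) and overlapping genes came from GENCODE M21, and promoters from RefSeq (GRCm38.p6). 8 of the 9 genes have the same coordinates in GENCODE M21 and the deposited table, and Fcgr2b differs.

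The 9 genes, the 6 pathway lists and the marker lists were chosen with earlier results of these data known. The genes named are the 9, in each pathway list those past the threshold in any comparison and the 2 with the smallest unadjusted p at 100 µg/ml against control, the markers, and the 5 genes most correlated with the one of the 9 that has the smallest p. Genes named outside this rule were Cd33, Clec12a, Sirpa, Tyrobp, Trem2, Fyn, Fgr, Fcer1a and Ms4a2, chosen after their values were seen. The alternatives were other pseudocounts and filters, quantile normalization, median-of-ratios rescaling, only the 6 libraries compared, eBayes with no trend, a replicate block and leaving out each library. The correction for transcript length and GC content, and the ratios without each library, were added after seeing the data.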

Additional observations from a re-analysis of the deposited data

How the results depend on the processing

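For the 9 genes at 100 µg/ml against control, 162 of 171 fits under alternatives kept the direction and the side of the threshold. Shares in parentheses below are of all genes called in the same fit and comparison. The number of the 9 genes called, 1 in the fit reported (2.11%), was 2 with a filter at a mean of 5 FPKM (2.63%). It was 2 after quantile normalization (2.61%), and 0 to 3 when one library was left out (0.251% to 4.75%). Under the correction for transcript length and GC content chosen after seeing the data it was 3 (8.09%). At 100 against 10 µg/ml it was 0 with only the 6 libraries compared (0.0628%), 2 under the length and GC correction (3.29%), and 0 to 1 with one library left out (0.0717% to 1.69%). Under the latter the Ptpn6 log2 fold change lay between -0.44 and -0.36 and its adjusted p from limma reached 0.126. The number of pathway genes called at 100 µg/ml against control was 2 with a pseudocount of 5 (2.13%) and 3 after median-of-ratios rescaling (2.28%). It was 0 with only the 6 libraries compared (0.251%), 7 under the length and GC correction (8.09%), and 0 to 4 with one library left out (0.251% to 4.75%). At 100 against 10 µg/ml it was 2 under the correction (3.29%) and 0 to 1 with one library left out (0.0717% to 1.69%). The fits of 6 libraries have fewer samples, and otherwise the cause was not tested. With the replicate number as a block, 1 of the 9 genes was called at 100 µg/ml against control and 0 against 10 µg/ml (Ptpn6, adjusted p = 0.0516 from limma), 0 pathway genes were called, and 106 genes in all in place of 236. Deviations of libraries with the same number correlated at -0.09 to 0.15 and over 0.1 in 1 of 9 pairs. These correlations cannot tell whether libraries with the same number shared a culture or a preparation, so the block was kept as an alternative only.

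Values that changed sign lay near 0, and the cause was not tested. At 10 µg/ml against control Fcgr3 (-0.01) became 0.0069 after quantile normalization and 0.026 under the length and GC correction, and with one library left out it ranged from -0.042 to 0.034, Fcgr2b from -0.067 to 0.11, Syk from -0.035 to 0.021 and Lyn from -0.024 to 0.027. At 100 µg/ml Fcgr4 against control became 0.0030 under that correction, and Fcer1g against 10 µg/ml ranged from -0.19 to 0.033 with one library left out. At 10 µg/ml no fit tried called any of the 9 genes. With 3 libraries a group, the 95% interval at 100 µg/ml against control ran from -0.25 to -0.03 for Lyn, the narrowest, and from -0.71 to 0.0020 for Inpp5d, the widest of the 9, so small differences were not detectable.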
